A study of Mus musculus with 22 samples.

Results

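Spleens of mice with B-cell lymphoma were compared by the stimulus the mice had received: sheep red blood cells (SRBC) with irradiation against SRBC alone. The titles chose the mice, 3 of each kind, so 6 of the 22 arrays of the series are described here, and the other 16 serve as background and for the estimate of spread. All 22 mice carry a cyclin D1 transgene and all received SRBC, an antigen that drives T cell dependent antibody responses. The irradiated diseased mice carry the transgene, have B cells without Bim, received SRBC with irradiation and are labelled as having developed MCL (mantle cell lymphoma). The diseased SRBC-alone mice share the transgene, the deletion and the MCL label and received SRBC without irradiation. The same stimuli were given to non-diseased Bim-deleted mice (3 with irradiation, 2 with SRBC alone) and to non-diseased mice with the transgene only (3 and 3, by their titles), and 5 further mice received pristane. The promoter of the transgene, the driver of the deletion, the radiation dose, the time to harvest and the ages of the mice are stated in none of the sources used here. RNA came from whole spleen, 1 array per mouse.

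Mantle cell lymphoma is a tumour of mature B cells in which cyclin D1, a partner of the kinases that release E2F factors from the retinoblastoma protein, is made where it normally is not. Bim, encoded by Bcl2l11, is a pro-death member of the BCL2 family that opens the mitochondrial route to apoptosis, on which caspase-9 is the first protease to act. Irradiation breaks DNA, and p53 then switches on genes that stop the cell cycle or kill the cell. The mouse spleen is also a site of red cell, platelet and granulocyte formation, which expands under stress.

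Values are log2 intensities, on a scale where the array median is 6.55 and serves as a guide to background. Of the B cell markers, Cd79b lay at 12.64 to 12.83 in irradiated and 12.54 to 12.83 in SRBC-alone mice, and Ms4a1 (CD20) at 7.98 to 8.15 in irradiated and 8.12 to 8.27 in SRBC-alone mice. The T cell receptor subunit Cd3e lay at 7.90 to 9.67 in irradiated and 8.73 to 9.24 in SRBC-alone mice, the red pulp macrophage factor Spic at 8.95 to 9.39 in irradiated and 9.03 to 9.63 in SRBC-alone mice, and the neutrophil protein S100a8 at 11.73 to 13.21 in irradiated and 12.26 to 13.30 in SRBC-alone mice. Across features, irradiated mice correlated with one another at r = 0.960 to 0.983 and SRBC-alone mice at 0.985 to 0.987. Irradiated mouse 1 correlated with SRBC-alone mouse 1 at 0.981 and with irradiated mouse 2 at 0.960. The Y-linked Eif2s3y stood at 6.42, 8.43 and 6.53 in irradiated mice and at 6.40, 6.48 and 6.44 in SRBC-alone mice, and Xist at 7.52, 6.39 and 8.63 in irradiated mice and at 7.99, 8.73 and 7.91 in SRBC-alone mice. Irradiated mouse 2 was thus the only one of the 6 with high Eif2s3y and low Xist. H2-Aa, an MHC class II chain, split across both groups, at 10.44, 10.89 and 6.89 in irradiated mice and at 6.87, 6.71 and 10.53 in SRBC-alone mice, and H2-Ea, another class II chain, took the opposite pattern, at 11.22, 11.26 and 14.02 in irradiated mice and at 13.57, 13.12 and 11.55 in SRBC-alone mice.

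Ccnd1, which encodes cyclin D1, stood at 10.25, 9.74 and 10.57 in irradiated mice and at 10.06, 9.46 and 9.56 in SRBC-alone mice. The groups overlapped, and the difference of 0.50 ± 0.38 (SE) did not pass the limma test (adjusted p = 0.937). Bcl2l11 stood at 8.73, 8.79 and 8.51 in irradiated mice and at 8.88, 8.01 and 7.64 in SRBC-alone mice (difference 0.50 ± 0.23, limma adjusted p = 0.937). SRBC-alone mouse 1 was the highest of all 22 mice, above the 8 labelled as having intact Bim, and the other SRBC-alone mice were below the irradiated ones. Non-diseased Bim-deleted mice lay at 7.62 to 7.95 and transgene-only mice at 7.88 to 8.52. Whether these probes read the transgene or the deleted part of Bcl2l11 was not tested, and whole spleen holds cells other than B cells, so the levels do not check the genotype labels.

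The contrast asks whether lymphoma-bearing spleens differ by the stimulus given. Of 21209 features tested, 1 passed (0.00471%; limma, adjusted p under 0.05): Casp9, higher in irradiated mice. At an unadjusted p under 0.05 there were 510 higher features (2.40%) and 562 lower ones (2.65%), together 1072 (5.05%), where 1060 would be reached with no difference at all. In 2420 features (11.4%) the groups did not overlap, with the irradiated mice all higher in 5.57% and all lower in 5.84%. With 3 mice against 3, an exact permutation test of a single gene cannot give a p below 0.1. The sources do not say whether mice shared a litter or were processed together, so p-values measure only the spread between these mice.

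Casp9 encodes caspase-9, the initiator caspase activated on the apoptosome after cytochrome c leaves the mitochondria. It stood at 8.57, 8.33 and 9.11 in irradiated mice and at 6.49, 6.52 and 6.47 in SRBC-alone mice. The groups were far apart, and the SRBC-alone mice sat at background with an SD of 0.03. The measured difference was 2.18 ± 0.24 (SE) on the log2 scale (limma adjusted p = 0.00528). Since the SRBC-alone mice were at background, this and every difference against them below is a lower bound on the size for Casp9. The 16 mice outside both groups lay at 8.09 to 9.27: the diseased pristane mouse at 9.27, non-diseased Bim-deleted mice at 8.25 to 9.06 with irradiation and 8.28 to 8.76 with SRBC alone, and transgene-only mice at 8.90 to 9.09 with irradiation and 8.09 to 8.93 with SRBC alone. The diseased irradiated mice therefore lay within the range of the other mice, and the diseased SRBC-alone mice below every one of them. Diseased minus non-diseased Bim-deleted mice gave -0.05 ± 0.24 under irradiation (limma adjusted p = 0.984) and -2.03 ± 0.27 under SRBC alone, again limited by the background (limma adjusted p = 0.048).

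The Casp9 result comes from 1 of 4 probes. The other 3 were near background in both groups, with means of 6.66, 6.78 and 6.55 in irradiated mice and 6.70, 6.89 and 6.58 in SRBC-alone mice and differences of -0.04, -0.11 and -0.03. With the 6 diseased mice fitted alone the limma adjusted p of Casp9 was 0.126, and without SRBC-alone mouse 1 it was 0.0515. It passed in the other 15 of 17 alternatives, and the log2 difference ran from 1.96 to 2.35. Which bases each probe reads is stated in none of the sources used here.

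**Figure D1:**
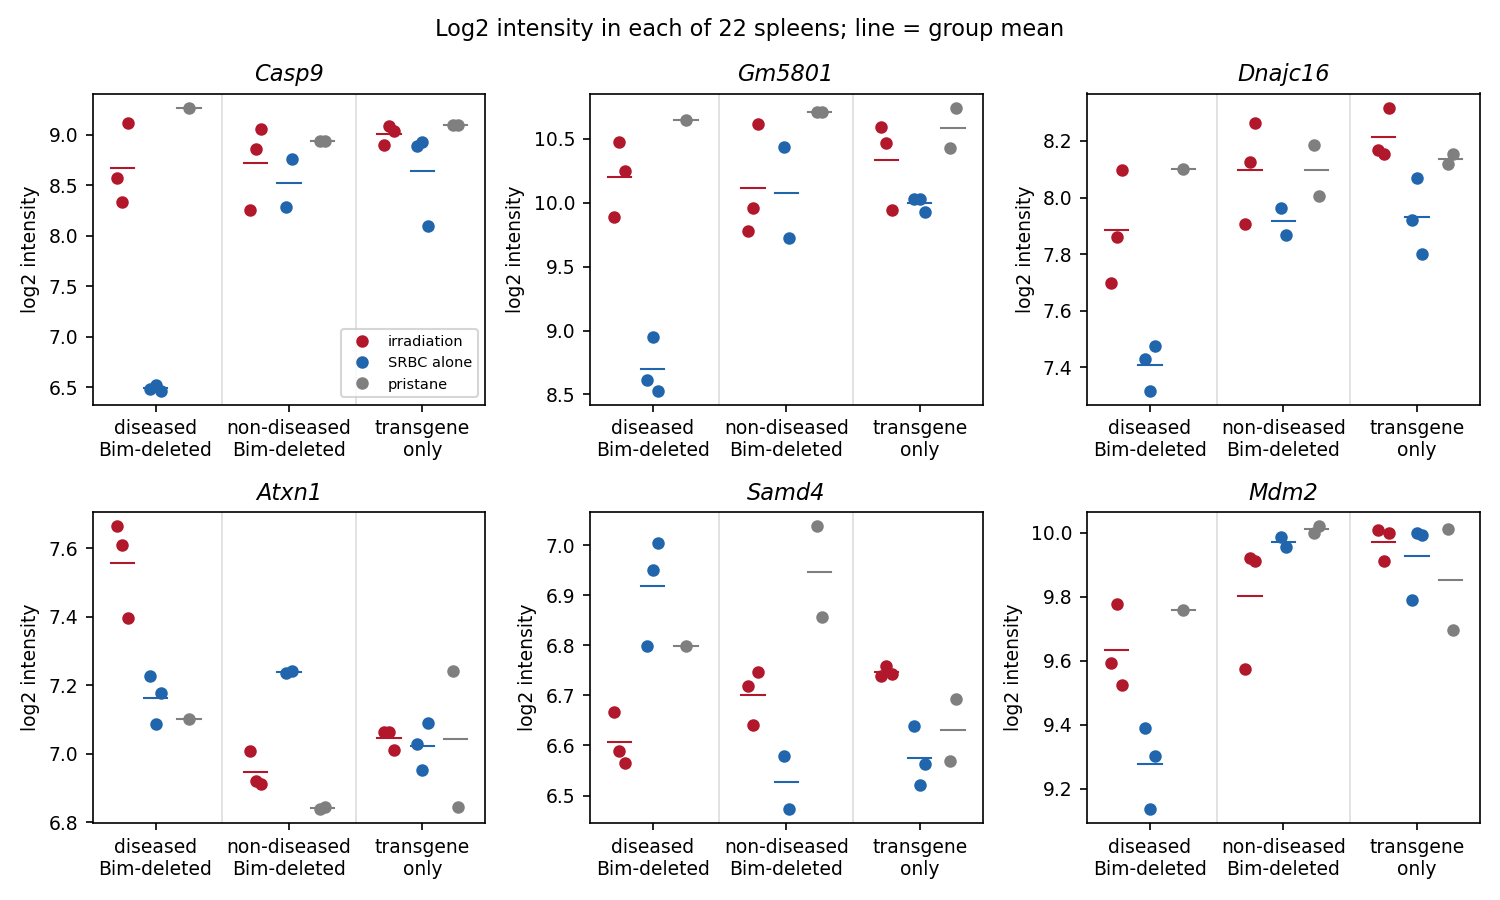
Log2 intensity (vertical axes) of 6 genes in each of 22 spleens, by kind of mouse (horizontal axes) and stimulus (colours), with lines at group means. Casp9 and Gm5801 are low in the 3 diseased SRBC-alone mice and in none of the other 19, whereas Atxn1 is highest in the 3 diseased irradiated mice.

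Genes next to Casp9 on chromosome 4 were read in gene order. Among its 40 nearest measured genes, 6 had groups that did not overlap (15%), near the 13.2% on the rest of the chromosome. All 6 had the irradiated mice higher, against 6.75% higher and 6.4% lower on the rest. That direction was seen before it was counted. The adjacent measured gene Dnajc16, which encodes a J-domain protein, stood at 7.70, 7.86 and 8.10 in irradiated mice and at 7.43, 7.32 and 7.48 in SRBC-alone mice (difference 0.48 ± 0.11, limma adjusted p = 0.591). Its groups did not overlap, but its other probe above background differed by -0.09. Fblim1, a filamin-binding adaptor, differed by 0.52 ± 0.18 and Plekhm2, which links lysosomes to kinesin, by 0.50 ± 0.18 (limma adjusted p = 0.937 and 0.937). Cela2a, Spata21 and Efhd2 differed by 0.21, 0.10 and 0.09, at levels near background.

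**Figure D2:**
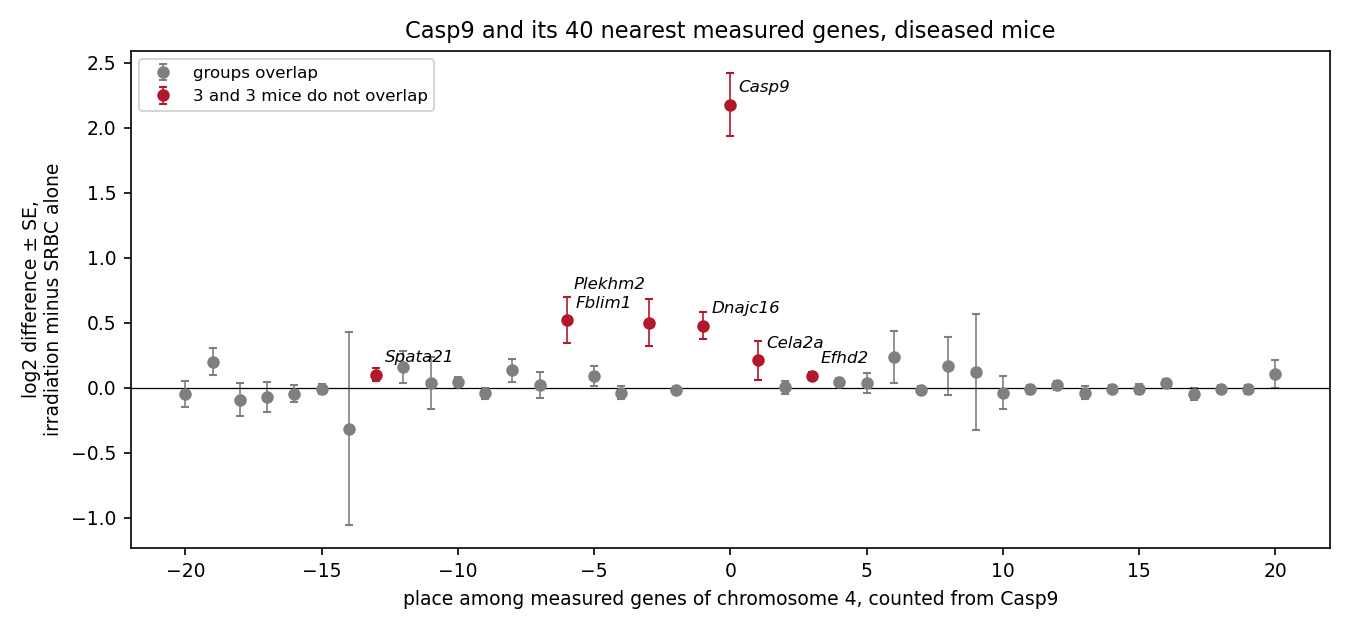
Log2 difference with SE, irradiation minus SRBC alone in diseased mice (vertical axis), of Casp9 and its 40 nearest measured genes in chromosome order (horizontal axis, place counted from Casp9); red marks genes whose 3 and 3 mice do not overlap. Casp9 stands at 2.18 and the 6 other red genes between 0.09 and 0.52.

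Gm5801, a predicted gene on chromosome 14, had a like pattern. It stood at 9.89, 10.47 and 10.25 in irradiated mice and at 8.61, 8.95 and 8.53 in SRBC-alone mice. The groups did not overlap, but the rule that named the gene required this (all irradiated higher in 5.57% of all features). The 16 mice outside both groups lay at 9.72 to 10.74. The difference was 1.51 ± 0.24 (limma adjusted p = 0.119, 0.0354 with trend and robust settings and 0.0425 with array weights). Its second probe differed by 0.04.

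None of the other named genes with higher values in irradiated mice passed adjustment. Atxn1, a transcriptional co-repressor, stood at 7.66, 7.61 and 7.40 in irradiated mice and at 7.23, 7.09 and 7.18 in SRBC-alone mice (difference 0.39 ± 0.08, limma adjusted p = 0.574). The irradiated diseased mice were the highest of all 22, the other 19 lying at 6.84 to 7.24. B3galt6, a galactosyltransferase of proteoglycan synthesis, differed by 0.72 ± 0.16, and Pusl1, a pseudouridine synthase relative, by 0.44 ± 0.09. The second B3galt6 probe, near background, differed by 0.09. Rnf44, a RING finger protein, differed by 0.49, and Prex1, an exchange factor for the GTPase Rac, by 0.42. Socs5, a suppressor of cytokine signalling, differed by 0.40, and the PDZ domain protein gene Tax1bp3 by 0.32. Heatr5b and the potassium channel gene Kcnj1 differed by 0.16 and 0.08.

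The named genes with lower values in irradiated mice did not pass either. Samd4, which encodes the RNA-binding translational repressor Smaug1, stood at 6.67, 6.59 and 6.57 in irradiated mice and at 6.80, 6.95 and 7.004 in SRBC-alone mice (difference -0.31 ± 0.06, limma adjusted p = 0.511). Gdpd1, a phosphodiesterase of lysophospholipids, stood at 7.31, 7.24 and 7.39 in irradiated mice and at 7.76, 8.33 and 8.17 in SRBC-alone mice (difference -0.77 ± 0.19, limma adjusted p = 0.733). In both genes every irradiated mouse was below every SRBC-alone mouse, but the rule that named them required this (5.84% of all features have it). The other Samd4 probes, near background, differed by -0.01 and 0.02. Tm7sf3 differed by -0.57, the carbonyl reductase gene Cbr1 by -0.40 and the meiotic cohesin gene Rec8 by -0.38. Gchfr, the feedback regulator of GTP cyclohydrolase, and the centrin gene Cetn4 differed by -0.32 and -0.32. Slc34a1, a phosphate transporter, Wbp1, Mroh7, Cryzl1 and the small GTPase gene Rab42 differed by -0.30, -0.30, -0.29, -0.29 and -0.14.

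Genes of DNA replication had lower means in irradiated mice in nearly every case. Of 27 measured members, 26 had a lower mean (48.5% of all features did), and the median difference was -0.51, beside 0.00 over all features. The groups did not overlap in 11 members, all lower (5.84% of all features), and 5 reached an unadjusted p under 0.05 in that direction (2.65%), while 0 passed adjustment. Tk1, the thymidine kinase of S phase, stood at 9.34, 9.01 and 8.71 in irradiated mice and at 9.69, 9.85 and 10.05 in SRBC-alone mice (difference -0.84 ± 0.33, limma adjusted p = 0.937). Mcm2, a subunit of the replicative helicase, stood at 9.60, 9.41 and 8.96 in irradiated mice and at 9.80, 10.17 and 10.25 in SRBC-alone mice (difference -0.75 ± 0.30). For both genes irradiated mouse 1 was the nearest to the SRBC-alone mice. Rfc4, a subunit of the clamp loader, differed by -0.66 ± 0.21, and Cdc6, which loads the helicase on origins, by -0.73 ± 0.31 (limma adjusted p = 0.937 and 0.937). In whole spleen, fewer cells of a type and less RNA per cell cannot be told apart.

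Mitosis genes and histones had smaller differences. All 26 measured mitosis and spindle genes had a lower mean in irradiated mice, with a median of -0.31. Of these, 7 had non-overlapping groups (5.84% of all features) and 0 reached an unadjusted p under 0.05 (2.65%). Without irradiated mouse 1 the median was -0.51, and without irradiated mouse 3 it was -0.19. Cdk1, the kinase that starts mitosis, stood at 8.89, 8.62 and 8.27 in irradiated mice and at 9.03, 9.27 and 9.33 in SRBC-alone mice (difference -0.62 ± 0.32, limma adjusted p = 0.937). Nusap1, a spindle protein, differed by -0.91 ± 0.47 and Mybl2, a cell cycle transcription factor, by -0.67 ± 0.35. Of 16 histone genes 15 were lower, with a median of -0.18. An unadjusted p under 0.05 (limma) was reached by 2, both lower (2.65% of all features), H1f5 at -0.21 and H4c9 at -0.56. The histone median was -0.10 without irradiated mouse 3 and -0.11 without SRBC-alone mouse 2.

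Promoters are shown for 3 lists whose members had differences mostly of one sign. The lists were drawn up by known function, so the motif shares describe the lists and carry no information on the contrast. RefSeq sequences of the 250 bases before the gene start (GRCm38.p6) were found for 23 of 27 replication genes, 22 of 26 mitosis genes and 17 of 24 erythroid genes. An E2F site, searched as TTTCCCGC or TTTGGCGC on either strand, occurred in 4 of 23 replication genes (17.4%), against 2.36% of the 11962 measured genes with a promoter. A CHR element (TTTGAA, either strand), known from mitosis genes, occurred in 8 of 22 mitosis genes (36.4%), against 14.2%. All motifs were searched in all 3 lists. The E2F letters occurred in 0 of 22 mitosis and 0 of 17 erythroid genes, and the CHR letters in 3 of 23 replication and 1 of 17 erythroid genes. A CCAAT box (CCAAT, either strand) occurred in 12 of 23 replication, 16 of 22 mitosis and 8 of 17 erythroid genes (39.8% of measured genes). An E-box (CACGTG) occurred in 2 of 23, 2 of 22 and 2 of 17 genes of these lists (8.95% of measured genes). The replication genes with the E2F letters follow, 5′ to 3′ on the gene's strand, with matches in capitals.
Cdc6, chr11:98907901-98908150, plus strand: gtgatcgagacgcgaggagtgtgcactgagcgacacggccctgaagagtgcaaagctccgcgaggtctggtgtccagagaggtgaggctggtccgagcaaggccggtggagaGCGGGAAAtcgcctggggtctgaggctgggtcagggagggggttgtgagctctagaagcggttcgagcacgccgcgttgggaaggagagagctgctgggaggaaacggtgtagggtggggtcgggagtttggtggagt
Mcm6, chr1:128359706-128359955, minus strand: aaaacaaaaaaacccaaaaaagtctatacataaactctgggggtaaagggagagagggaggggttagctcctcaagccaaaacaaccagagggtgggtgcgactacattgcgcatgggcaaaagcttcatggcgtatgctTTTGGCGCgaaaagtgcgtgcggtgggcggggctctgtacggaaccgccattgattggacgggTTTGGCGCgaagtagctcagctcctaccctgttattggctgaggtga
Mcm7, chr5:138171884-138172133, minus strand: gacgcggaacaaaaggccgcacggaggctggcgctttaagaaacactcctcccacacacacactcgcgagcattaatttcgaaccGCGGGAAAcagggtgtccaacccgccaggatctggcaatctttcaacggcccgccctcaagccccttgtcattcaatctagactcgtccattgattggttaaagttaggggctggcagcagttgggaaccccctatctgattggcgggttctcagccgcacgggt
Mcm5, chr8:75109259-75109508, plus strand: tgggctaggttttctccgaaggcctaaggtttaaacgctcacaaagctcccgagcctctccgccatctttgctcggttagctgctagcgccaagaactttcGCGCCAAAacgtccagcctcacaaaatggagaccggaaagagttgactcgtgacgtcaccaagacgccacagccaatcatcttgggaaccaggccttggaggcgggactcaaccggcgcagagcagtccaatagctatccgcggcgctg
The log2 differences were -0.73 for Cdc6, -0.36 for Mcm6, -0.36 for Mcm7 and -0.31 for Mcm5, and none passed adjustment. Mitosis genes with the CHR letters include Cdk1 and Kif11, a spindle motor with a difference of -0.43.
Cdk1, chr10:69352913-69353162, minus strand: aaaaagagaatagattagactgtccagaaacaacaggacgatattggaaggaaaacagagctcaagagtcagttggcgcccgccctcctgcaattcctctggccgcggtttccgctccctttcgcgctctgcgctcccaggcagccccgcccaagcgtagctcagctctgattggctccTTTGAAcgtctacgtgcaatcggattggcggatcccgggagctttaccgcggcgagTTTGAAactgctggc
Kif11, chr19:37376132-37376381, plus strand: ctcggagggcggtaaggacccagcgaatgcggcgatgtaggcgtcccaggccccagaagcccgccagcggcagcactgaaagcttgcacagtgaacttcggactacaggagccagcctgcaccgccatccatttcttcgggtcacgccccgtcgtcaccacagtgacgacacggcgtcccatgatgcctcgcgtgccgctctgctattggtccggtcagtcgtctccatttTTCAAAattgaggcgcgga

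Red cell genes had lower means in irradiated mice with a wide spread. Of 24 measured genes of the erythroid lineage and haem synthesis, 23 had a lower mean, with a median of -0.73. The groups did not overlap in 4, all lower (5.84% of all features), and 0 reached an unadjusted p under 0.05 (2.65%). Klf1, the erythroid master factor, stood at 10.41, 9.39 and 9.04 in irradiated mice and at 10.48, 10.91 and 10.57 in SRBC-alone mice. Irradiated mouse 1 lay nearest to the SRBC-alone mice. Tspo2, an erythroid gene, differed by -1.07 ± 0.55 and Icam4, an erythroid adhesion molecule, by -1.03 ± 0.62. The erythropoietin receptor gene Epor differed by -0.61 ± 0.40 and the membrane skeleton gene Add2 by -0.73 ± 0.51. A GATA site (AGATAA, either strand), the letters bound by the erythroid factor GATA1, occurred in 7 of 17 erythroid promoters (41.2%), against 8.61% of measured genes, and in 1 of 23 replication and 2 of 22 mitosis genes. The promoters of Icam4 and Epor show it in capitals.
Icam4, chr9:21029182-21029431, plus strand: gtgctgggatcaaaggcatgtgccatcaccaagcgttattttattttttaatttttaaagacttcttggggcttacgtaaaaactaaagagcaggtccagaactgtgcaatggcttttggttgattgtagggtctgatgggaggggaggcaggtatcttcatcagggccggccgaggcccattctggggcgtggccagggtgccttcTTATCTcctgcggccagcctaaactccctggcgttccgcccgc
Epor, chr9:21963577-21963826, minus strand: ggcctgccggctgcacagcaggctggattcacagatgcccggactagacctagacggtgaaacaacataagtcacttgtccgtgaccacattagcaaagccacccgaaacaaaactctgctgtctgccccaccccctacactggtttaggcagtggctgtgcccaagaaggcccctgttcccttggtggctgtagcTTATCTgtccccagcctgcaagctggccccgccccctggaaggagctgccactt

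Since red cell precursors divide, the levels were set side by side by mouse, as list scores (each member's log2 intensity less its average in the 22 mice, averaged over the list). The replication score was 0.31, -0.09 and -0.31 in irradiated mice, against 0.33, 0.50 and 0.55 in SRBC-alone mice. The erythroid score was 0.80, -0.04 and -0.32 in irradiated mice, against 0.64, 0.995 and 0.92 in SRBC-alone mice. The irradiated mice took the same order in both scores. With the erythroid score as a covariate, 26 of 27 replication genes had a lower fitted difference (median -0.29), and 23 of 26 mitosis genes did (median -0.14). The slope of that covariate comes from spread within the combinations of all 22 mice. There the 2 transgene-only pristane mice, with erythroid scores of -2.42 and 1.32, lay farthest apart. Whether red cell content accounts for any difference between the groups was therefore not tested. Without irradiated mouse 1 the replication median was -0.65 and the erythroid median -1.11, and without irradiated mouse 3 they were -0.36 and -0.45.

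**Figure D3:**
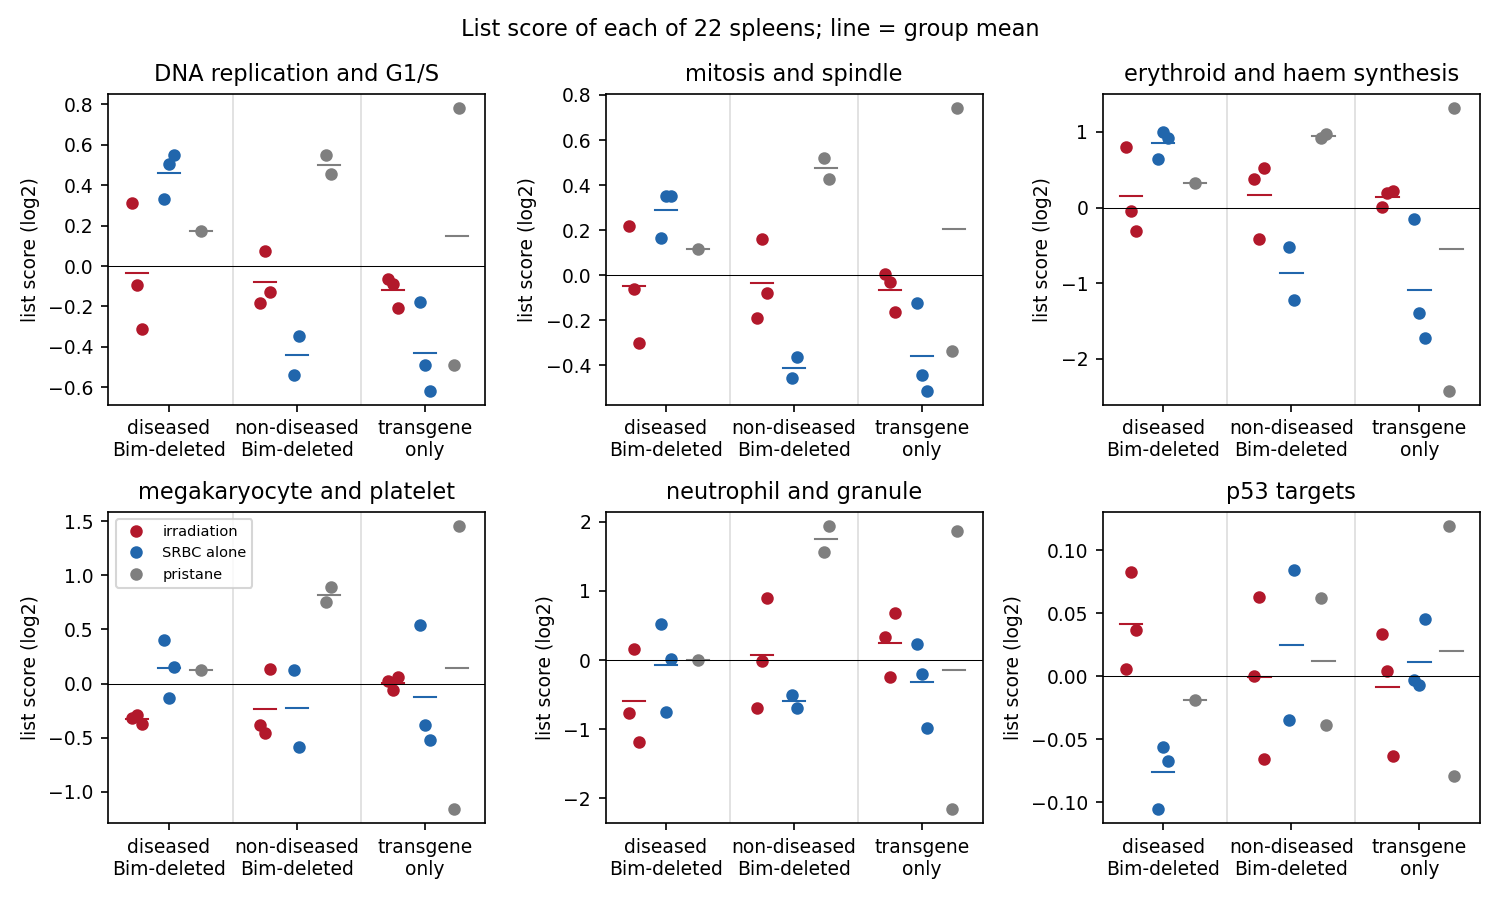
List scores (vertical axes, log2 units relative to the mean of 22 mice) of 6 gene lists in each spleen, by kind of mouse (horizontal axes) and stimulus (colours), with lines at group means. Among diseased mice the replication, platelet and p53 scores of the 3 irradiated and 3 SRBC-alone mice do not overlap.

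Platelet genes had lower means in irradiated mice too. Of 16 measured megakaryocyte and platelet genes, 14 were lower, with a median of -0.56, and 9 had non-overlapping groups in that direction (5.84% of all features), but 0 reached an unadjusted p under 0.05 (2.65%). Without SRBC-alone mouse 1 the median was -0.33. Pf4, platelet factor 4, stood at 7.98, 8.61 and 8.40 in irradiated mice and at 9.59, 8.72 and 8.82 in SRBC-alone mice. Gp9, a subunit of the von Willebrand factor receptor, stood at 7.95, 7.67 and 7.67 in irradiated mice and at 8.71, 8.31 and 8.50 in SRBC-alone mice (difference -0.75 ± 0.62, limma adjusted p = 0.938). In both genes every irradiated mouse was lower than every SRBC-alone mouse. Treml1, a platelet granule receptor, differed by -1.02 ± 0.81 and Gfi1b, a repressor shared by red cell and platelet precursors, by -0.86 ± 0.64. The platelet score was -0.32, -0.29 and -0.37 in irradiated mice, against 0.40, -0.13 and 0.16 in SRBC-alone mice. The transgene-only pristane mice, whose spread also enters every SE, lay far apart, with platelet scores of -1.16 and 1.45. Their erythroid scores were -2.42 and 1.32 and their neutrophil scores -2.15 and 1.87. With the erythroid score as a covariate the platelet median was -0.01, with 10 of 16 lower. The slope of this fit leans on the same pristane pair.

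Neutrophil granule genes had 19 of 20 lower means and a median of -0.59. Yet 0 had non-overlapping groups (11.4% of all features) and 0 an unadjusted p under 0.05 (5.05%, limma). Their score was -0.77, 0.17 and -1.18 in irradiated mice, against 0.53, -0.76 and 0.02 in SRBC-alone mice, so each group held high and low mice. The median was -1.03 without irradiated mouse 2, -0.25 without irradiated mouse 3, -0.24 without SRBC-alone mouse 1 and -0.98 without SRBC-alone mouse 2. Chil3, a chitinase-like protein of myeloid cells, differed by -1.12 ± 0.91. With the erythroid score as a covariate, whose slope leans on the transgene-only pristane pair, the neutrophil median was 0.09, with 5 of 20 lower. In the list of eosinophils, basophils and mast cells, 3 of 12 genes were higher and 9 lower. Il5ra, a chain of the interleukin-5 receptor, differed by -0.42 ± 0.15. The eosinophil granule genes Prg2, Prg3 and Epx differed by 0.20, 0.01 and 0.01.

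Some targets of p53, the factor activated by DNA breaks, had higher values in irradiated mice. Of 23 measured targets, 7 had non-overlapping groups, all higher (5.57% of all features), and 6 reached an unadjusted p under 0.05 in that direction (2.40%), with 0 in the other, and 0 passed adjustment. The median of the list was 0.04, with 15 higher and 8 lower. Mdm2, the ubiquitin ligase that holds p53 in check, stood at 9.59, 9.78 and 9.53 in irradiated mice and at 9.39, 9.14 and 9.30 in SRBC-alone mice (difference 0.36 ± 0.10, limma adjusted p = 0.937). The 19 mice outside the diseased SRBC-alone group lay at 9.53 to 10.02, above those 3. Non-diseased SRBC-alone mice, at 9.95 to 9.99 (Bim-deleted) and 9.79 to 10 (transgene only), were also above the irradiated diseased mice. Zmat3, an RNA-binding growth inhibitor, stood at 7.64, 7.63 and 7.43 in irradiated mice and at 7.13, 7.22 and 7.22 in SRBC-alone mice (difference 0.37 ± 0.11). The irradiated diseased mice were above all other 19, which lay at 6.89 to 7.38. Cdkn1a, the cell cycle inhibitor p21, stood at 8.15, 7.70 and 7.88 in irradiated mice and at 7.53, 7.54 and 7.25 in SRBC-alone mice (difference 0.47 ± 0.19). Phlda3, an inhibitor of AKT, differed by 0.30 ± 0.12, Pmaip1, the BH3-only protein Noxa, by 0.13 ± 0.05 and cyclin G1 (Ccng1) by 0.34. The p53 score was 0.01, 0.08 and 0.04 in irradiated mice, against -0.11, -0.06 and -0.07 in SRBC-alone mice.

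**Figure D4:**
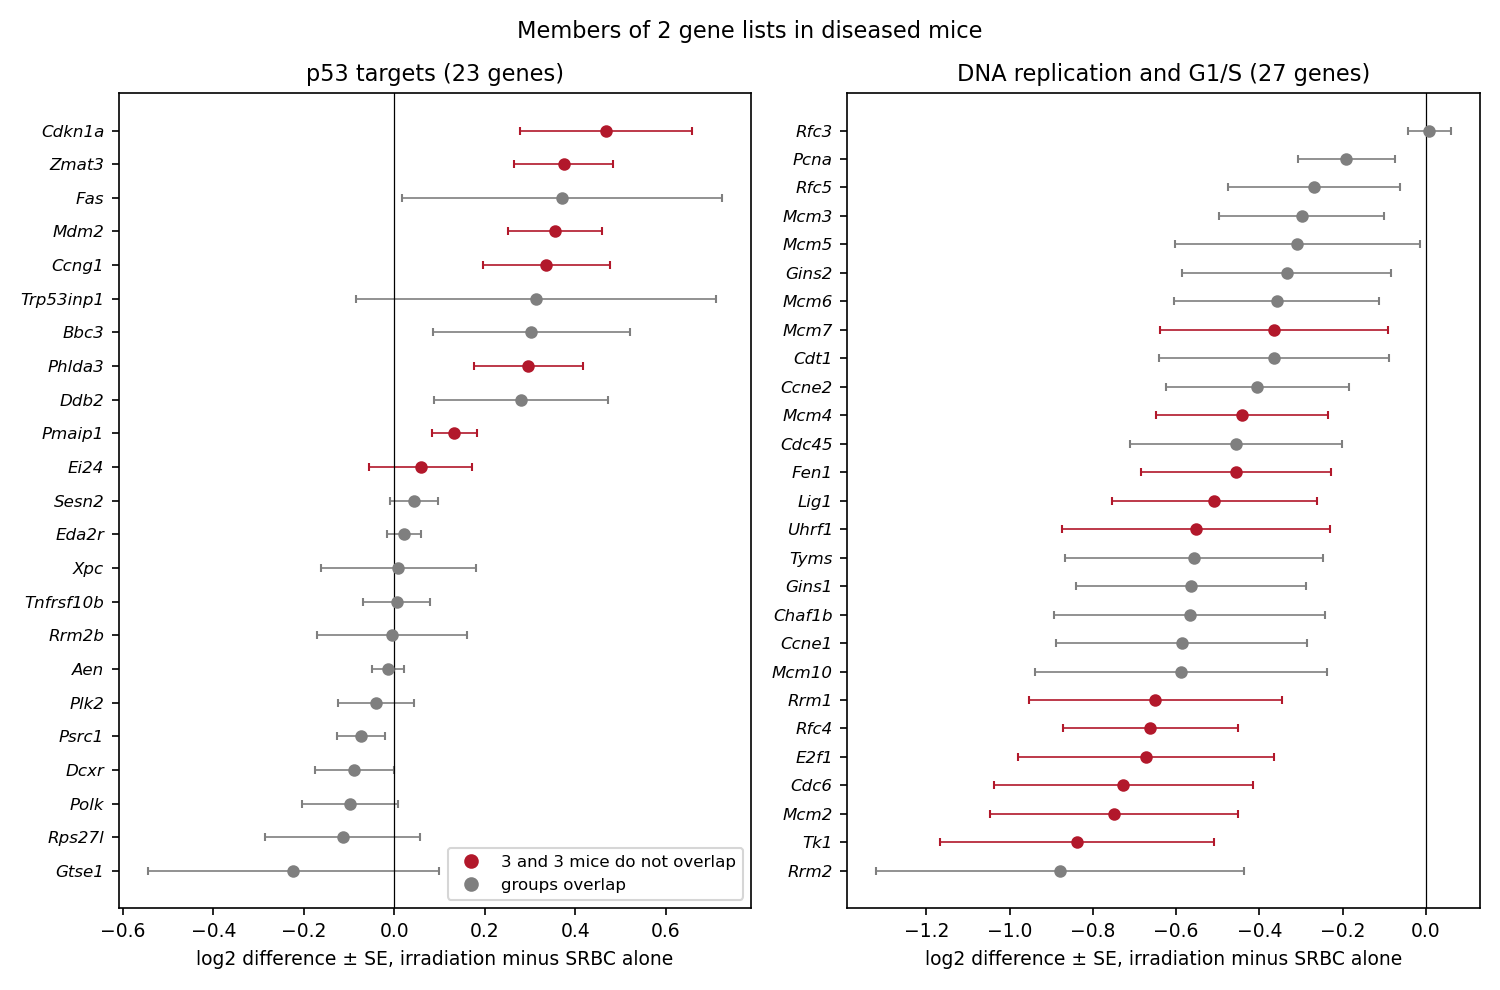
Log2 difference with SE, irradiation minus SRBC alone in diseased mice (horizontal axes), of each measured p53 target and each DNA replication gene; red marks genes whose 3 and 3 mice do not overlap. The 7 red p53 targets lie above 0 and the 11 red replication genes below it.

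DNA repair genes had 10 higher and 15 lower means (median -0.02). Blm, a helicase of recombination, differed by -0.76 ± 0.38 and Rad54l, a recombination motor, by -0.40 ± 0.22. Among 15 BCL2 family genes 7 were higher and 8 lower (median 0.00). At an unadjusted p under 0.05 (limma) there were 3, all higher (2.40% of all features): Bcl2, Bcl2l11 and Pmaip1, already counted among the p53 targets. Bcl2, the death inhibitor, stood at 8.61, 8.31 and 8.50 in irradiated mice and at 8.29, 7.56 and 8.04 in SRBC-alone mice (difference 0.51 ± 0.20, limma adjusted p = 0.937). The irradiated diseased mice were above the other 19, which lay at 7.07 to 8.29. Bbc3, the BH3-only protein Puma, differed by 0.30 ± 0.22.

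Among 15 D-type cyclins, their kinases and inhibitors, 5 were higher and 10 lower (median -0.06). Rb1, the retinoblastoma protein that cyclin D1 kinases inactivate, stood at 9.06, 8.86 and 8.87 in irradiated mice and at 9.71, 10.19 and 9.86 in SRBC-alone mice (difference -0.99 ± 0.31, unadjusted p = 0.00628, limma adjusted p = 0.937). The irradiated mice were within the 8.39 to 10.001 of the 16 mice outside both groups. The kinase inhibitor gene Cdkn2c differed by -0.46 ± 0.23.

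Among NF-kB genes 15 of 19 had higher means in irradiated mice (51.5% of all features did), with a median of 0.13. Their score was -0.07, 0.05 and 0.12 in irradiated mice, against 0.09, -0.34 and -0.09 in SRBC-alone mice, with SRBC-alone mouse 2 the lowest and SRBC-alone mouse 1 above irradiated mice 1 and 2. The median was 0.03 without SRBC-alone mouse 2, 0.07 without irradiated mouse 2, 0.20 without irradiated mouse 1 and 0.19 without SRBC-alone mouse 1. Nfkbia, the inhibitor induced by NF-kB itself, stood at 10.11, 9.99 and 10.24 in irradiated mice and at 9.68, 9.40 and 9.53 in SRBC-alone mice (difference 0.58 ± 0.21, limma adjusted p = 0.937). Its groups did not overlap. Immediate early and heat shock genes were higher in 15 of 19, with a median of 0.11 (0.04 without SRBC-alone mouse 2, 0.04 without irradiated mouse 3, 0.06 without irradiated mouse 2 and 0.17 without irradiated mouse 1). The 3 at an unadjusted p under 0.05 (limma), all higher (2.40% of all features), were the chaperone gene Hspa1a (0.27 ± 0.11), Klf6 (0.34 ± 0.15) and the phosphatase gene Dusp1 (0.39 ± 0.17).

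Of the lymphocyte lists, that of the germinal centre had separate scores. Germinal centre genes were higher in 10 of 12 (median 0.14), 3 of them with non-overlapping groups (5.57% of all features) and 1 at an unadjusted p under 0.05 (2.40%). The score was -0.15, 0.05 and -0.09 in irradiated mice, against -0.22, -0.32 and -0.21 in SRBC-alone mice, and Gna13, a G protein that confines germinal centre B cells, differed by 0.66 ± 0.36. The pan-B cell list had a median of 0.03, and Btk, the tyrosine kinase of B cell receptor signalling, differed by 0.29 ± 0.13. The follicular, marginal zone, B-1a and plasma cell lists had medians of 0.12, -0.02, -0.05 and 0.09. The T cell list had a median of 0.03, with scores of -1.02, -0.15 and 0.10 in irradiated mice, against -0.41, -0.34 and -0.36 in SRBC-alone mice. The NK list had a median of -0.04, and Tbx21, the factor T-bet, differed by -0.36 ± 0.16.

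The medians of the remaining lists were 0.05 for dendritic cells, 0.04 for marginal zone macrophages, -0.10 for red pulp macrophages and iron, 0.03 for stroma, 0.05 for the interferon response, 0.12 for MHC class II and 0.09 for peptide loading. They were 0.02 for MYC targets, 0.02 for stem and progenitor genes, 0.00 for early B cell genes, 0.00 for the clock, 0.09 for hypoxia and glycolysis, -0.08 for eosinophils, basophils and mast cells and -0.57 for the 2 measured immunoglobulin chains. The 8 measured sex-linked genes had a median of -0.08, with 4 higher and 4 lower. Cd163, a haemoglobin scavenger of macrophages, differed by -0.70 ± 0.30. Adjacent tissue had medians of 0.03 for pancreas and -0.06 for fat. Of 8 measured pancreas genes 5 were higher and 3 lower. The groups did not overlap in 3 higher ones (5.57% of all features) and 1 lower one (5.84%). The elastase gene Cela1 stood at 7.57, 8.28 and 8.23 in irradiated mice and at 8.43, 9.11 and 8.96 in SRBC-alone mice. In the other direction, Amy2a5 differed by 0.58 and Cela2a by 0.21. Of all 37 lists, 5 had scores that did not overlap between the groups (13.5%, near the 11.4% of single features): replication, histones, platelets, germinal centre and p53. Leaving out 1 diseased mouse turned the sign of the median in 19 of the 37 lists, whose medians over all 6 mice ran from -0.10 to 0.12.

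The same stimulus contrast was then read in mice without disease. It made 0 calls in non-diseased Bim-deleted mice, with 671 features at an unadjusted p under 0.05 (3.16%), and 0 in transgene-only mice, with 926 (4.37%; limma). Replication genes had the opposite sign there: 26 of 27 were higher with irradiation in non-diseased Bim-deleted mice (median 0.35; 46.0% of all features were) and 26 in transgene-only mice (median 0.31; 46.6%). Mitosis genes had medians of 0.34 and 0.24 and erythroid genes of 1.03 and 1.24, in the same order of mice. Neutrophil genes had medians of 0.65 and 0.58 and platelet genes of -0.05 and 0.05. The p53 targets had medians of -0.034 (8 of 23 higher) and -0.015 (11 of 23 higher). The replication scores of SRBC-alone mice were -0.54 to -0.35 in Bim-deleted mice without disease and -0.62 to -0.18 in mice with the transgene only, below those of the diseased SRBC-alone mice given above.

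The difference between the contrasts was tested for every feature. Diseased minus non-diseased Bim-deleted gave 0 calls (limma; 1004 features at an unadjusted p under 0.05, 4.73%), and diseased minus transgene-only gave 0 (1110, 5.23%). Of 27 replication genes 15 reached an unadjusted p under 0.05 in the first and 13 in the second. Of 26 mitosis genes 11 and 9 did, and of 24 erythroid genes 2 and 9. Of 8 sex-linked genes 0 and 4 did, and the part of sex in these differences was not tested. For Tk1 the contrast was -0.84 with disease, 0.72 without disease in Bim-deleted mice and 0.57 in mice with the transgene only (limma adjusted p of the differences 0.969 and 0.899). For Casp9 it was 0.20 ± 0.27 in Bim-deleted mice without disease and 0.37 ± 0.24 in mice with the transgene only. The diseased contrast of Casp9, limited by the background, exceeded these by 1.98 ± 0.36 and 1.81 ± 0.34 (limma adjusted p = 0.551 and 0.833). For Atxn1 the non-diseased contrasts were -0.29 and 0.02, for Samd4 0.18 and 0.17, and for the potassium channel subunit gene Kcnab3 0.13 and 0.09, where the diseased contrast was -0.13. The cytochrome gene Cyp2e1 had 0.15 in diseased and -0.66 in non-diseased Bim-deleted mice, and Trnp1 0.06 in diseased and -0.65 in transgene-only mice.

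**Figure D5:**
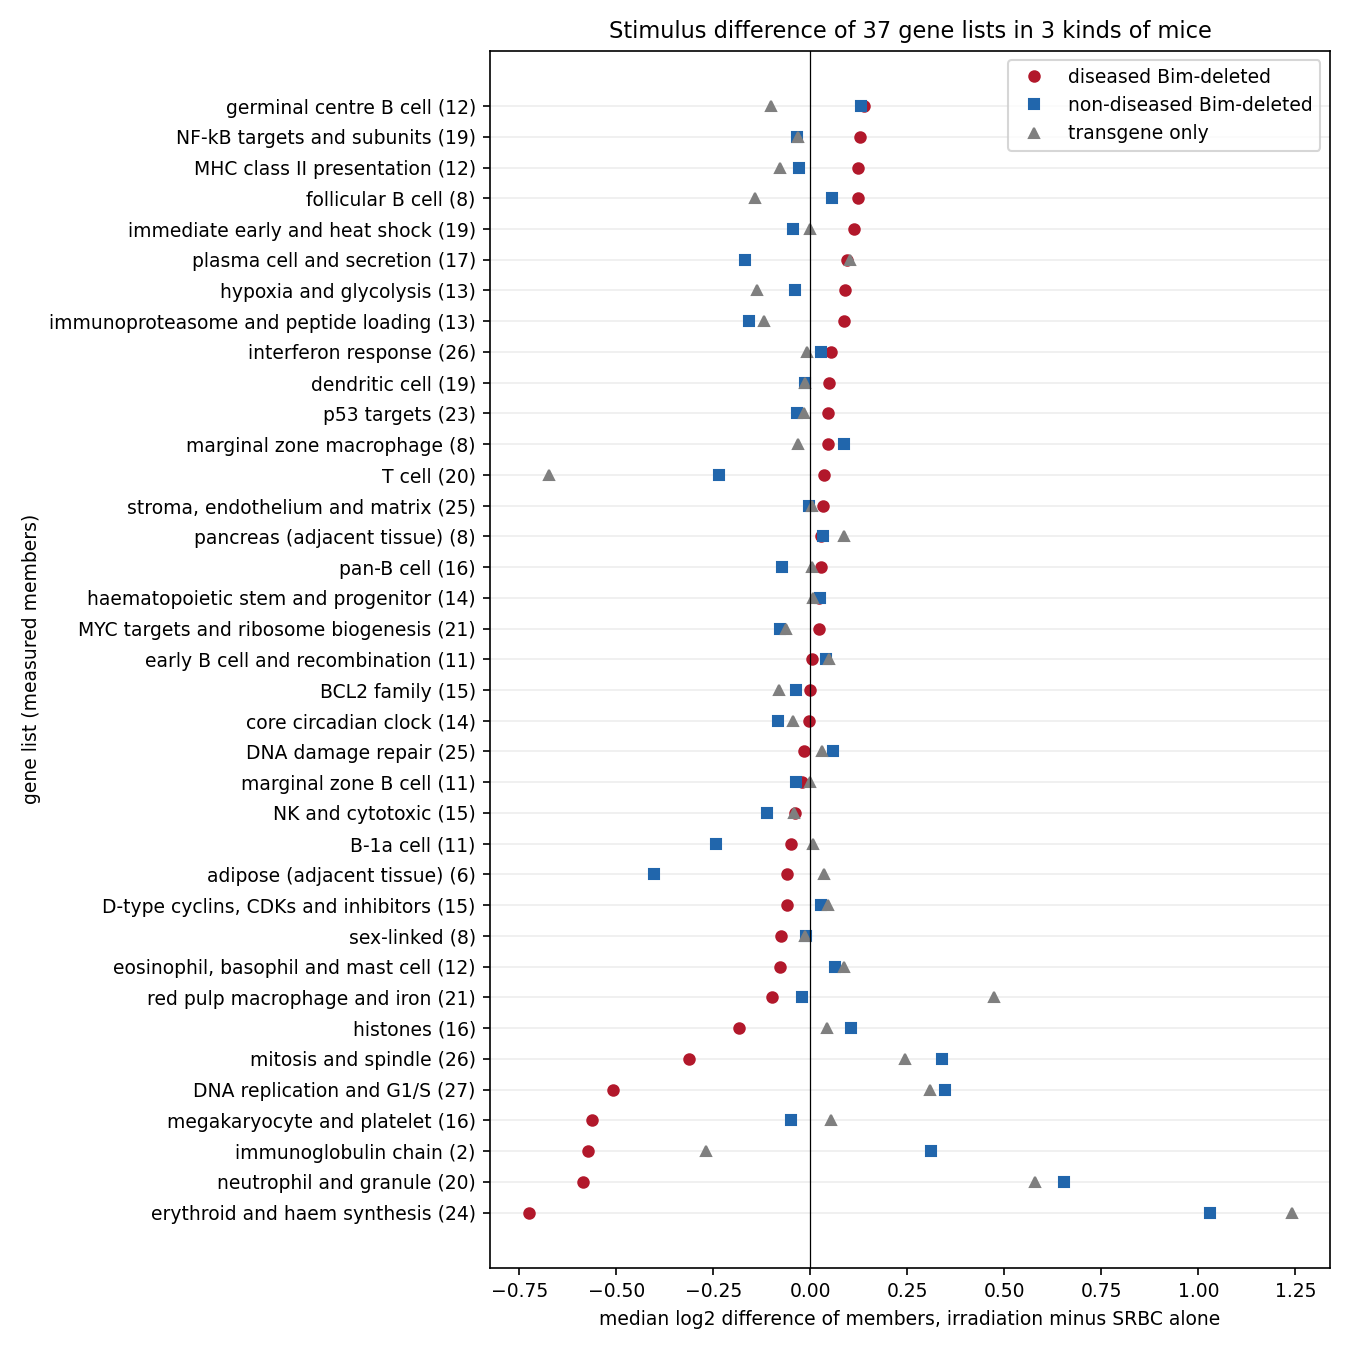
Median log2 difference of list members, irradiation minus SRBC alone (horizontal axis), for 37 gene lists (vertical axis) in diseased and non-diseased Bim-deleted mice and those with the transgene only (colours and shapes). The erythroid, neutrophil, replication and mitosis medians are below 0 in diseased mice and above 0 in both other kinds.

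Each diseased group was last set against non-diseased Bim-deleted mice of its own stimulus. Under irradiation 12 features passed (0.0566%, limma, all higher in diseased mice), and under SRBC alone 1 did, Casp9 (0.00471%). The mice were 3 against 3 and 3 against 2. At an unadjusted p under 0.05 (limma) the order turned, with 1802 features (8.50%) under irradiation and 2824 (13.3%) under SRBC alone. The non-diseased mice had Eif2s3y at 7.96 to 8.33 with irradiation and 7.93 to 8.36 with SRBC alone and Xist at 6.45 to 6.49 and 6.43 to 6.48, unlike 5 of the 6 diseased mice, and the part of this in the disease differences was not tested. Cyp11a1, the enzyme that starts steroid synthesis, differed by 1.08 ± 0.13 under irradiation (limma adjusted p = 0.0137) and 0.88 ± 0.15 under SRBC alone (0.0637). Twsg1, a secreted binder of bone morphogenetic proteins, differed by 1.24 ± 0.17 (0.0147) and 1.06 ± 0.19 (0.094), and Wdfy1 by 1.06 ± 0.14 (0.0139) and 1.09 ± 0.16 (0.0505). Atxn1 differed by 0.61 ± 0.08 (0.0139) under irradiation and -0.08 ± 0.09 (0.793) under SRBC alone. For Plin3, a lipid droplet protein, the values were 0.45 ± 0.06 (0.0139) and 0.09 ± 0.07 (0.617), and for the kinase gene Cdk14 0.70 ± 0.11 (0.0305) and 0.17 ± 0.12 (0.585). The keratin gene Krt18, Tbc1d22a, Zcchc17 and 3 probes without a gene name were the others. The test of the difference between the stimuli passed for none of the 12 (limma adjusted p of 0.551 or more).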

How the data were processed

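The authors deposited log2 intensities from 22 single-colour Illumina arrays, 1 per spleen, normalized between arrays: the columns hold nearly the same distribution and genes are not centred. Neither background correction nor software is stated in the sources used here. A second table, of unnormalized signal, has 44 columns that match no mouse by name; the neqc step foreseen on it was therefore replaced by the deposited log2 values. The number of arrays limits the precision. No array duplicated another among the 6 diseased mice compared (smallest SD of a difference 0.217).

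Of 45281 probes, 34885 had 1 gene listed, 18 several and 10378 none. A probe was kept if at least 6 of the 22 arrays had it above their own percentile 40, which left 31262, and a gene was represented by its brightest probe. The fit covered 21209 features (14914 with a gene name). Names and gene order follow GRCm38.p6.

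One limma model (limma 3.58.1, R 4.3.3) with a mean for each of 9 combinations of genotype, disease and stimulus gave every contrast, two-sided, with Benjamini-Hochberg adjustment over all features and a threshold of 0.05. Groups came from the titles; the design text counts 7 transgene-only mice where 8 titles name one, and all 8 were used. The model was run on simulated data with independent normal noise and, for each feature, equal spread in all groups. Real arrays need not have these properties, so the error rate in these data was not measured. Lists (37, with 589 of 694 entries measured) are described by counts and medians, with no test.

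The comparison, its lists and its named genes were chosen with earlier results of these data known. Named genes were those past the threshold and then, up to 12 in each direction, those of smallest unadjusted p with non-overlapping groups; Ccnd1 and Bcl2l11; up to 4 of each list by smallest p; and 5 for each difference of contrasts. Markers, neighbours of Casp9, genes called between diseased and non-diseased mice and other list members were named after their values were seen.

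Alternatives changed the probe filter, the use of probes, the eBayes settings, array weights, the mice fitted, the title number as a block, Xist or the erythroid score as a covariate, and each diseased mouse in turn.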

Additional observations from a re-analysis of the deposited data

How the results depend on the processing

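Over 17 alternatives, 40 of 49 counts of calls stayed equal or close. Of 1187 values of named genes, 1183 kept their direction and side of the threshold, and 0 named genes changed sign. Of 553 list medians, 538 moved by less than the SD of the list score between mice of a group. Direction was not part of that measure, and 19 of the 37 list medians changed sign when 1 diseased mouse was left out. The diseased contrast had 1 call and gave 3 with trend and robust settings, 3 with array weights and 3 with the 6 diseased mice fitted alone. The 3 of that last fit were probes without a gene name. Casp9 (limma adjusted p = 0.126) and Gm5801 were not among them. Leaving out each diseased mouse in turn gave 0 to 2 calls: 0 without SRBC-alone mouse 1, and 2 without irradiated mouse 1 or without SRBC-alone mouse 3. The difference from non-diseased Bim-deleted mice gave 0 to 1 calls, and that from transgene-only mice 0 to 1, the 1 in each case without SRBC-alone mouse 3; without the 5 pristane mice the second gave 2. The cause of these shifts was not tested.

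Mice with the same title number did not all deviate together (r = 0.216, -0.125 and 0.144 for numbers 1 to 3; 3 of 6 mice correlated best with their own number). With the title number as a replicate block the diseased contrast gave 1 call (Casp9, limma adjusted p = 0.0254), and the differences of contrasts gave 0 and 0. Signal near background limits the reading of genes close to 6.55.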
